A study of Arabidopsis thaliana with 12 samples.

Results

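The genes followed were 9 protein kinases and 1 nuclear importer of Arabidopsis thaliana that belong to families acting on serine/arginine-rich (SR) splicing factors. They were taken by locus identifier from a gene table of 33602 genes, and all 10 were found and passed the filter on low counts. They are the LAMMER kinases AFC1 (AT3G53570), AFC2 (AT4G24740) and AFC3 (AT4G32660), the SRPK-type kinases SRPK4 (AT3G53030), AT4G35500, AT2G17530, AT3G44850 and AT5G22840, the PRP4-type kinase PRP4KA (AT3G25840) and the transportin MOS14 (AT5G62600). Their splicing events in the companion table numbered 357, and 346 of these had at least 10 reads in every library, against 324799 in all.

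The libraries came from polyadenylated RNA of whole germinated seeds. Wild type plants were Col-0, and the mutant line, sr34a-1, carries an allele of SR34A (AT3G49430), itself an SR protein gene. The line stands for 1 mutant allele, and the labels give no second allele or complemented line. Seeds of both genotypes were stratified, grown for 44 h in continuous white light on MS medium, and moved for 2 h to MS medium alone, called mock, or to MS medium holding 0.5 µM ABA, abscisic acid, the hormone of seed dormancy and water stress. Each genotype had 3 mock and 3 ABA libraries, labelled as biological replicates, so p-values measure the spread between these libraries.

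SR proteins carry a domain rich in arginine and serine, and phosphorylation of its serines governs where the protein sits and whether it takes part in splicing. In animals, SRPK kinases phosphorylate SR proteins in the cytoplasm, a transportin carries the phosphorylated proteins into the nucleus, and kinases of the LAMMER family (CLK in animals) add further phosphates there. MOS14 is the Arabidopsis transportin that imports SR proteins. PRP4KA belongs to a family of kinases associated with the spliceosome.

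Total counts ranged from 61128187 to 83268758 per library, and each of the 10 genes had between 589 and 6176 reads in each library. SR34A was examined first as a check of the labels. Its level, in the authors' corrected RPKM (cRPKM, reads scaled to length and sequencing depth), was 78.4 ± 2.83 in WT mock, 10.8 ± 0.556 in sr34a-1 mock, 73.4 ± 2.41 in WT ABA and 10.08 ± 1.02 in sr34a-1 ABA (SD, n = 3 each). All 8 ABA-response genes of a fixed list were higher with ABA in both genotypes. The seedling genes ICL, MLS, RBCS1A and LHCB1.3 lay above 1243 cRPKM in all libraries, the meristem genes STM and PLT1 lay between 1.02 and 3.37, and the flower genes AG and AP3 stayed at or below 0.13 with VGD1, a pollen gene, at 0. On the first 2 principal components the groups did not mix, and sr34a-1 mock 1 lay farthest from its own group on the second (-34.8, against -17.3 and -15.7 for its replicates). The labels give no batch or date.

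The sequences shown here are the splice sites and the exon whose use differed between genotypes. All lie on the minus strand of TAIR10.1 as held by RefSeq and are written 5′ to 3′ along the transcript. For AFC1, the last intron before the start codon can end at either of 2 acceptor sites 39 bases apart, and capitals mark the AG that ends the intron and, in the second line, the ATG start codon that lies between both sites. The windows are chr3:19864144-19864173 and chr3:19864105-19864134.
AFC1 upstream acceptor: tctgggtttctgaatttcAGctctggattt
AFC1 downstream acceptor: taatcctttATGcaaagcAGtgtgtatcgt
For AFC2, an exon of 190 bases (chr4:12756745-12756934) can be skipped, and the 617-base intron before it (chr4:12756935-12757551) can be kept. Capitals mark the AG before the exon (window chr4:12756925-12756954), the first bases of the intron after it (chr4:12756725-12756754) and the first bases of the 617-base intron (chr4:12757532-12757561).
AFC2 exon acceptor: tggtacatgaatatgtgtAGgctcaggtag
AFC2 exon donor: actccacgctGTaatcccacttttctatta
AFC2 intron donor: ggcaaccaagGTataaattctcttcacctc
For MOS14, an exon of 51 bases (chr5:25127557-25127607) lies inside a 431-base intron, and is printed in capitals with 20 bases on each side (chr5:25127537-25127627).
MOS14 exon: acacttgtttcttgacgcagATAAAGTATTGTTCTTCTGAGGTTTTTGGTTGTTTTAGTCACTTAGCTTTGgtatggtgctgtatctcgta

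**Figure D1:**
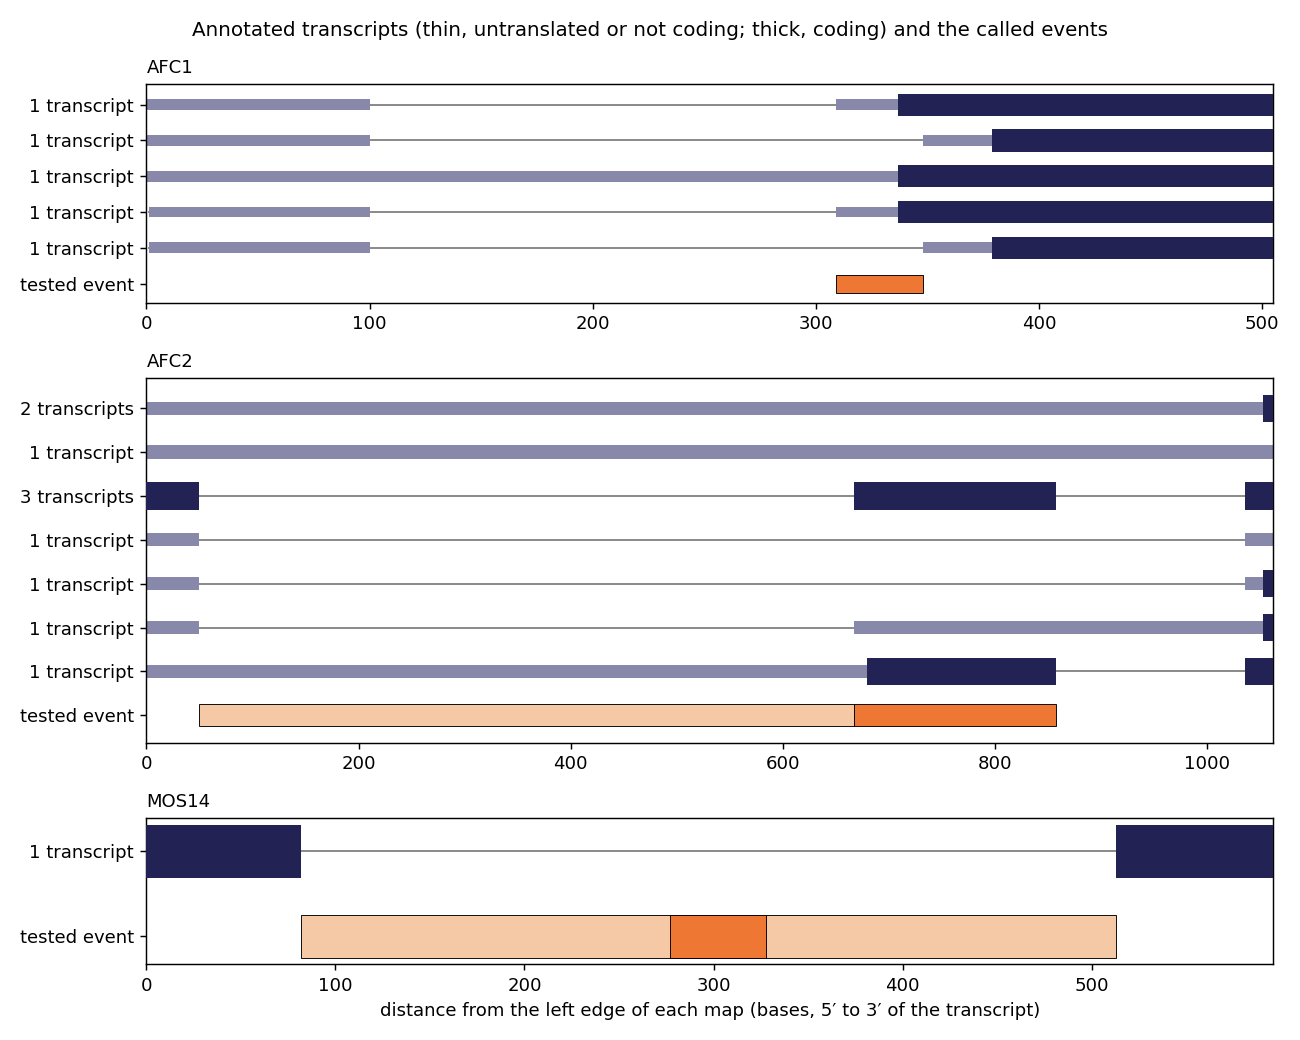
Annotated RefSeq transcripts around the events whose use differed between genotypes in AFC1, AFC2 and MOS14, drawn to scale in bases from the left edge of each map. Thick bars are coding, thin bars are exon parts that are untranslated or not coding, the label gives how many transcripts share a structure, dark orange marks the stretch between the AFC1 acceptors (39 bases) and the exons (190 and 51 bases), and pale orange marks the retained introns (617 and 431 bases).

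In TAIR10.1 the LAMMER genes lie at chr3:19861177-19864588 (AFC1, minus strand, 5 RefSeq transcripts), chr4:12754489-12757866 (AFC2, minus, 10) and chr4:15756018-15759314 (AFC3, plus, 4). The SRPK-type genes lie at chr3:19662195-19664553 (SRPK4, plus, 1), chr4:16857030-16859620 (AT4G35500, plus, 2), chr2:7626325-7629149 (AT2G17530, plus, 3), chr3:16374243-16377263 (AT3G44850, minus, 1) and chr5:7630717-7633380 (AT5G22840, minus, 1). PRP4KA lies at chr3:9451861-9457554 (minus, 2) and MOS14 at chr5:25122803-25132716 (minus, 1 transcript of 27 exons).

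The levels were compared per length of transcript. The mean cRPKM over the 12 libraries was 25.4 for AFC2, 23.0 for AFC3 and 22.2 for PRP4KA. These 3 formed the upper group, since every library of PRP4KA (19.5 to 24.9) lay above every library of the next gene. AT2G17530 followed with 13.9, SRPK4 and MOS14 with 11.3 each, AFC1 with 10.7, AT5G22840 with 10.13, AT3G44850 with 8.58 and AT4G35500 with 6.85 cRPKM. Between all other neighbours in this order the ranges over libraries overlapped. The median gene tested had a mean of 10.3 cRPKM, so AFC2 stood at the 73.7th percentile of the 21256 tested genes and AT4G35500 at the 40.3rd.

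**Figure D2:**
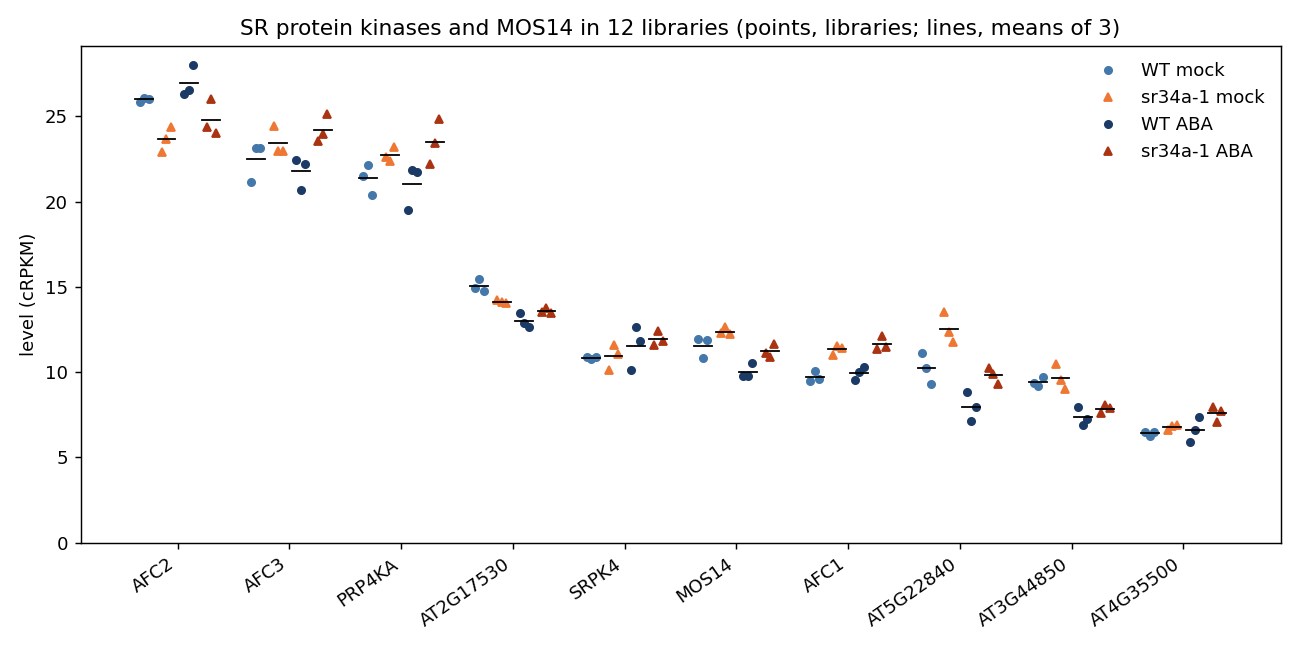
Level in cRPKM of the 10 genes in each of the 12 libraries, ordered by mean level, with circles for WT, triangles for sr34a-1, lighter colours for mock and darker colours for ABA, and lines for the means of 3 libraries. AFC2, AFC3 and PRP4KA lie between 19.5 and 28.0 cRPKM and all others between 5.91 and 15.5.

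The mutant was compared with WT to ask whether the kinases and the importer are expressed at another level when SR34A is reduced. Averaged over both treatments, AFC1, AFC3, AT5G22840, PRP4KA and MOS14 were higher in sr34a-1, AFC2 was lower, and the other 4 did not pass the test. The changes were small, from 1.07-fold for AFC3 to 1.23-fold for AT5G22840 among the higher genes, and 0.911-fold for AFC2. The 6 calls of 10 stand beside 33.9% of all tested genes called in this comparison (17.9% higher and 16% lower), at an adjusted p under 0.05 in the quasi-likelihood test of edgeR (Benjamini-Hochberg adjustment over all genes). The median log2 fold change of the 10 was 0.11, against 0.0099 over all tested genes. Because the material was whole seedlings, more RNA per cell and more cells of a type cannot be told apart here, nor can less RNA per cell and fewer such cells. Of the 6 seedling marker genes, 3 were higher and 2 lower in sr34a-1, with log2 fold changes from -0.97 to 0.40. Of the 8 ABA-response genes, 5 were higher and 0 lower in sr34a-1. The part of either in these differences was not tested.

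Among the LAMMER kinases, AFC1 was higher and AFC2 lower in the mutant. AFC1 measured 9.49, 10.08 and 9.59 cRPKM in WT mock and 11.03, 11.56 and 11.39 in sr34a-1 mock. With ABA it measured 9.54, 10.03 and 10.31 in WT against 11.36, 12.14 and 11.45 in sr34a-1. Every sr34a-1 library was above every WT library. The log2 fold change was 0.22 (SE 0.049) under mock and 0.22 (SE 0.050) with ABA, with Benjamini-Hochberg adjusted p of 0.00766 and 0.00647 from edgeR, and 0.22 (SE 0.035, adjusted p 0.000275) averaged over treatments. AFC2 measured 25.85, 26.10 and 26.05 cRPKM in WT mock and 22.93, 23.66 and 24.36 in sr34a-1 mock. With ABA it measured 26.32, 26.56 and 28.03 in WT against 24.39, 26.00 and 24.03 in sr34a-1. The mutant's libraries were the lower ones within each treatment, with no overlap. The averaged log2 fold change of AFC2 was -0.13 (SE 0.030, adjusted p 0.00333 with edgeR). AFC3 was less clear, with 21.16 to 23.16 cRPKM in WT and 22.99 to 24.42 in sr34a-1 under mock, and 20.68 to 22.42 and 23.54 to 25.15 with ABA. Its groups overlapped under mock and not with ABA, and its averaged log2 fold change was 0.10 (SE 0.036, adjusted p 0.0395 in edgeR's test). AFC3 overlaps genes on the other strand over 391 bases in all. Of these, AT4G32670 stood at 2.84 to 3.73 cRPKM with an averaged genotype log2 fold change of 0.049. For AT4G08705 no value was available, so its level is not known.

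The SRPK-type kinases held the gene with the largest difference between genotypes and 4 that did not pass the test. AT5G22840 measured 11.14, 10.23 and 9.31 cRPKM in WT mock and 13.52, 12.34 and 11.77 in sr34a-1 mock. With ABA it measured 8.81, 7.11 and 7.97 in WT against 10.22, 9.91 and 9.28 in sr34a-1. The mutant's libraries were the higher ones within each treatment, with no overlap, although WT mock and sr34a-1 ABA overlapped. The log2 fold change was 0.30 (SE 0.085) under mock and 0.29 (SE 0.087) with ABA, with adjusted p of 0.0287 and 0.0278 with edgeR. AT5G22840 overlaps AT5G22830 on the other strand and AT5G22850 on its own strand over 285 bases in all, and the sources used here do not say if strand was used in counting. AT5G22830 stood at 31.92 to 43.59 cRPKM and AT5G22850 at 12.32 to 14.59. In the same averaged comparison AT5G22830 had a log2 fold change of -0.23 and AT5G22850 of -0.0998, against 0.29 for AT5G22840. The part of overlapping reads in these values was not tested. SRPK4 (log2 fold change 0.024, 95% interval -0.085 to 0.13), AT2G17530 (-0.019, -0.085 to 0.047), AT3G44850 (0.059, -0.050 to 0.17) and AT4G35500 (0.14, 0.015 to 0.26) had adjusted p from 0.0778 to 0.751 in edgeR's test.

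PRP4KA and the importer MOS14 were both slightly higher in the mutant. PRP4KA measured 20.41 to 22.15 cRPKM in WT and 22.38 to 23.19 in sr34a-1 under mock, and 19.52 to 21.88 and 22.19 to 24.87 with ABA. MOS14 measured 11.97, 10.83 and 11.86 cRPKM in WT mock and 12.28, 12.62 and 12.24 in sr34a-1 mock. With ABA it measured 9.80, 9.75 and 10.52 in WT against 11.13, 10.88 and 11.63 in sr34a-1. For both genes the libraries of the genotypes did not overlap in either treatment. The averaged log2 fold change was 0.12 (SE 0.037, adjusted p 0.0227) for PRP4KA and 0.13 (SE 0.037, adjusted p 0.0158) for MOS14 with edgeR.

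Within single treatments fewer genes passed. Under mock 3 of the 10 were called, AFC1 and AT5G22840 higher and AFC2 lower, beside 16.4% of all tested genes (8.42% higher and 7.99% lower), or 5381 genes in place of 3488 with the replicate number as a block. With ABA 4 were called, the same 3 and MOS14, which was higher, beside 22.1% (11.1% higher and 11% lower). In CPM (library-scaled counts), 7 of 10 genes did not overlap between genotypes under mock, beside 34.9% of all tested genes, and 6 of 10 with ABA, beside 37.1%. AFC3 and PRP4KA had an adjusted p of 0.0562 each with ABA, and passed with 0.0354 and 0.0245 when the replicate number was a block in edgeR's model. That block called 6450 of all tested genes with ABA, in place of 4705, so nothing is read from these passes. The calls of AFC1, AFC2 and AT5G22840 averaged over treatments held in all 18 alternative fits. Those of MOS14 were lost without WT mock 2 (adjusted p 0.0519), of PRP4KA without WT mock 3, WT ABA 1 or sr34a-1 ABA 3 (0.0606 to 0.0665) and of AFC3 without any 1 of 8 libraries named in the closing section (0.0501 to 0.118). The single-treatment calls were less stable. Under mock the count fell to 1, AFC1, without WT mock 2 or 3 or sr34a-1 mock 1 or 2, and with ABA it was 2 without sr34a-1 mock 2, WT ABA 2, or sr34a-1 ABA 1 or 3. AFC2 lost its mock call without any WT mock library or sr34a-1 mock 1 or 2 (adjusted p 0.0505 to 0.118, edgeR), and AT5G22840 without WT mock 2 or 3 or sr34a-1 mock 1 or 2 (0.0586 to 0.157). With ABA, AFC2 lost its call without WT mock 1, sr34a-1 mock 2 or 3, any WT ABA library, or sr34a-1 ABA 1 or 3 (0.0526 to 0.183), AT5G22840 without WT ABA 2 or 3 or sr34a-1 ABA 1 or 2 (0.0545 to 0.119), and MOS14 without WT mock 3, sr34a-1 mock 2, WT ABA 1 or 2, or sr34a-1 ABA 1 or 3 (0.0566 to 0.132).

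**Figure D3:**
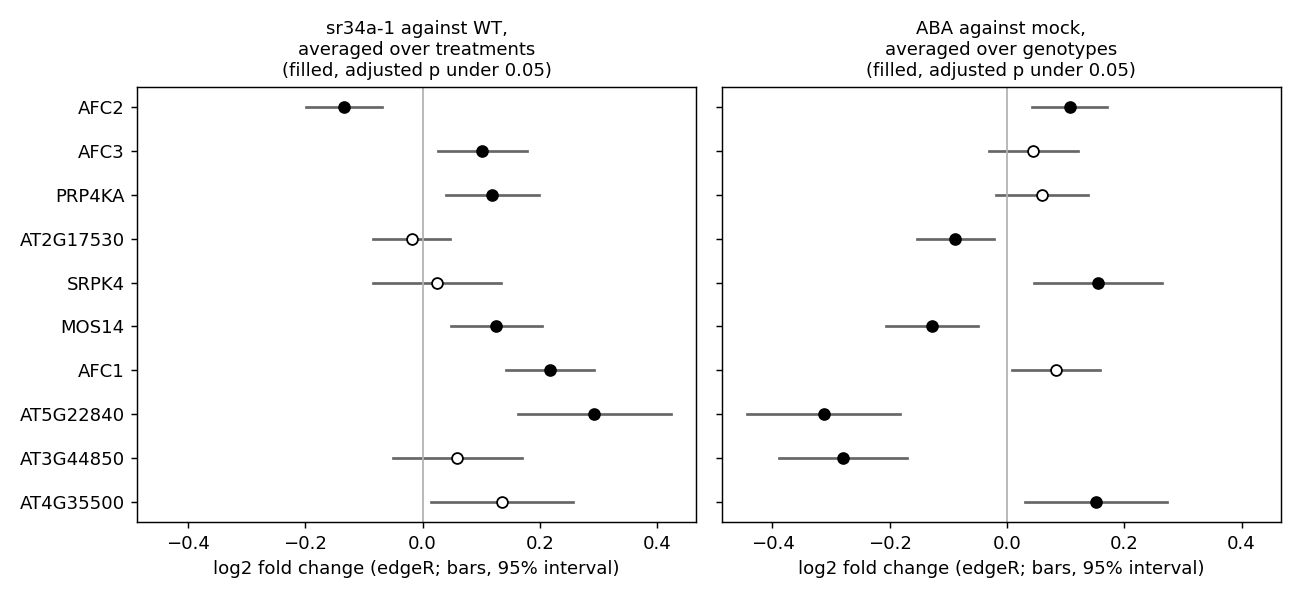
Log2 fold change of the 10 genes between genotypes (left) and between treatments (right), each averaged over the other factor, with points for the estimates of edgeR and bars for 95% intervals over 12 libraries. Filled points passed an adjusted p under 0.05: 6 of 10 between genotypes and 7 of 10 between treatments, where AT3G44850 (-0.28) and AT5G22840 (-0.31) lie lowest.

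The ABA libraries were compared with the mock libraries to ask how the same genes stand after 2 h of hormone. The SRPK-type genes split: AT5G22840, AT3G44850 and AT2G17530 were lower with ABA, while SRPK4 and AT4G35500 were higher. MOS14 was lower and AFC2 higher, and AFC1, AFC3 and PRP4KA did not pass the test. These were 7 calls of 10, averaged over genotypes, beside 51.2% of all tested genes (24.7% higher and 26.4% lower). The median log2 fold change was 0.052 for the 10 genes and -0.015 over all tested genes. With limma on log2(cRPKM + 1), which changes both the test and the scale, there were 0 higher and 4 lower, in place of 3 and 4. The estimates of AFC2, SRPK4 and AT4G35500 were then 0.058, 0.098 and 0.090, and these genes lost their calls. The median over all tested genes was -0.047 on that scale, so the calls of higher genes depend on the scaling. Of the 6 seedling marker genes, 1 was higher and 1 lower with ABA (log2 fold changes from -1.08 to 0.24), and their part in these differences was not tested.

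AT3G44850 measured 9.35, 9.16 and 9.70 cRPKM in WT mock and 7.98, 6.92 and 7.26 in WT ABA. In sr34a-1 it measured 10.46, 9.55 and 9.03 under mock and 7.58, 8.08 and 7.88 with ABA. In both genotypes all ABA libraries were below all mock libraries. In edgeR's test its log2 fold change stood at -0.30 (SE 0.073, adjusted p 0.005) for WT and -0.26 (SE 0.072, adjusted p 0.00934) for the mutant. AT5G22840, with the levels given above, changed by -0.31 (SE 0.087, adjusted p 0.0119) in WT and -0.32 (SE 0.085, adjusted p 0.00848) in the mutant on the log2 scale, and its libraries did not overlap either. Its neighbours AT5G22830 and AT5G22850 had averaged log2 fold changes of -0.028 and 0.13 with ABA, against -0.31 for AT5G22840. These 2 kinases had ABA levels of 0.824-fold and 0.805-fold of mock, averaged over genotypes, and kept the call in all 18 alternatives.

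AT2G17530 was the gene in which the genotypes differed most in their response to ABA, though the difference did not pass. It measured 14.92, 15.45 and 14.77 cRPKM in WT mock and 13.44, 12.91 and 12.64 in WT ABA, with no overlap. In sr34a-1 it measured 14.23, 14.09 and 14.08 under mock and 13.55, 13.77 and 13.44 with ABA. With edgeR, WT changed by -0.16 (SE 0.044, adjusted p 0.0101) on the log2 scale and sr34a-1 by -0.016 (SE 0.044, adjusted p 0.8). The interaction was 0.14 (SE 0.062, 95% interval 0.012 to 0.28) with an adjusted p of 0.757 in edgeR, so a difference in response is not shown. In cRPKM the ABA libraries of sr34a-1 were all below its mock libraries, while in CPM with the TMM factors of edgeR they overlapped.

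MOS14 had a log2 fold change with ABA of -0.15 (SE 0.052, adjusted p 0.0314) in WT and -0.10 (SE 0.051, adjusted p 0.132) in sr34a-1, and of -0.13 (SE 0.037, adjusted p 0.00881) averaged, in edgeR's test. SRPK4 and AT4G35500 were higher, each with an averaged log2 fold change near 0.15 (SE 0.051 and 0.056, adjusted p 0.0202 and 0.0362). SRPK4 measured 10.74 to 10.91 cRPKM under mock and 10.14 to 12.66 with ABA in WT, and 10.11 to 11.58 and 11.61 to 12.41 in sr34a-1. AT4G35500 measured 6.24 to 6.49 and 5.91 to 7.38 in WT, and 6.62 to 6.92 and 7.08 to 7.98 in sr34a-1, so that in WT both genes overlapped between treatments. AFC2 was higher by 0.11 (SE 0.030, adjusted p 0.00816). In WT alone 4 of 10 were called, all lower (AT2G17530, AT3G44850, AT5G22840 and MOS14), beside 35.1% of all tested genes (18.2% higher and 17% lower), and the count was 2 without WT mock 1 or WT ABA 2. MOS14, whose WT libraries overlapped between treatments in CPM, lost its call in WT without WT mock 1 or 3 or WT ABA 1 or 2 (adjusted p 0.0837 to 0.108, edgeR), AT2G17530 without WT mock 2 or WT ABA 3 (0.06 to 0.068) and AT5G22840 without WT mock 1 or WT ABA 2 (0.0538 to 0.0585). In sr34a-1 alone 2 were called, both lower (AT3G44850 and AT5G22840), beside 40.1% (19.4% higher and 20.7% lower). That count was 0 without sr34a-1 mock 1, where AT3G44850 had an adjusted p of 0.0666 and AT5G22840 of 0.0504 with edgeR, 4 without WT mock 1 or 2 or WT ABA 3, and 5 without WT ABA 1 or 2. AT5G22840 also lost its call without sr34a-1 ABA 3 (0.0501). In CPM, 4 of 10 genes did not overlap between treatments in WT, beside 45.1% of all tested genes, and 7 of 10 in sr34a-1, beside 50.6%. Each comparison by treatment shares a group of libraries with each comparison by genotype, so their values are given side by side only.

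For the interaction of genotype and treatment, 0 of 10 genes were called, beside 0% of all tested genes, with 1374 genes at an unadjusted p under 0.05 and 1 of the 10 among them. DESeq2 called 36 genes in all and edgeR with the replicate block 74, and both called 0 of the 10. The averaged call of AT4G35500 with ABA was lost without any 1 of 8 libraries, and that of AT2G17530 without any 1 of 6, as listed in the closing section.

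Splicing was measured as the percent spliced in (PSI), the share of reads that include an exon, an intron or a splice site. Of the 346 events with at least 10 reads per library, 275 remained after the first of each set of alternative sites was left out, and 40 had a mean PSI between 2 and 98 and were tested. They were spread over AFC2 (11), AFC3 (7), PRP4KA (7), AFC1 (6), MOS14 (6), AT2G17530 (2) and SRPK4 (1), while AT4G35500, AT3G44850 and AT5G22840 had none. Between genotypes, averaged over treatments, 5 events in 3 genes differed, 3 higher and 2 lower in sr34a-1, with limma at a Benjamini-Hochberg adjusted p under 0.05. Over all 27995 events tested the share called was 2.19%, 1.31% higher and 0.886% lower, and nothing is read from it, since the 2 MOS14 events entered the test through the mutant libraries only. They were the acceptor of AFC1, the exon and the intron of AFC2, and the exon and the intron of MOS14 shown above. Under mock alone and with ABA alone 1 of 40 was called each time, the AFC1 acceptor, which was lower. The background was 0.529% of all events under mock (0.239% higher and 0.289% lower) and 0.793% with ABA (0.454% higher and 0.339% lower). The averaged count was 3 without any 1 of WT mock 1 or 3, sr34a-1 mock 1, 2 or 3, or WT ABA 1 or 3.

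In AFC1 the mutant used the downstream acceptor more often. The PSI of the upstream acceptor was 87.36, 85.94 and 84.31% in WT mock and 73.91, 58.23 and 68.35% in sr34a-1 mock. With ABA it was 83.51, 86.11 and 84.78% in WT against 59.04, 68.42 and 60.75% in sr34a-1. Each of the 6 mutant libraries was below each of the 6 WT libraries, on 69 to 128 reads per library. The downstream acceptor took the remainder, a mean of 14.1% in WT mock against 33.2% in sr34a-1 mock, and 15.2% against 37.3% with ABA (n = 3 each). The mean difference of the upstream site was -20.6 percentage points, and its log2 ratio of inclusion to exclusion reads differed by -1.62 (SE 0.25, adjusted p 8.04e-05 in limma). That call held in all 17 alternatives, while the call under mock was lost without WT mock 1, 2 or 3 or sr34a-1 mock 2 or 3 (adjusted p 0.0686 to 0.267) and the call with ABA was lost without sr34a-1 ABA 1 (0.0566).

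In the annotation the upstream AFC1 site lies before both start codons, and the downstream site lies between them. Splicing to the upstream site keeps the ATG marked in the second sequence line, whose first base lies 28 bases after the first exon base and which opens a coding sequence of 1404 bases in 3 transcripts. Splicing to the downstream site removes it, and the transcripts annotated with that site start at an ATG 42 bases (14 codons) further on, in the same frame, with 1362 coding bases. RefSeq lists 2 transcripts for each site. The last 20 intron bases held 12 pyrimidines at the upstream and 10 at the downstream site, against a median of 12 over the introns of at least 60 bases in the splicing table.

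In AFC2 the 190-base exon was included less and the intron before it was kept more. PSI of the exon was 72.98, 80.48 and 66.94% in WT mock and 61.57, 63.49 and 63.47% in sr34a-1 mock. With ABA it was 66.45, 71.99 and 75.22% in WT against 49.03, 66.04 and 61.61% in sr34a-1. The mutant's libraries were the lower ones within each treatment, with no overlap, on 293 to 471 reads. The mean difference was -11.5 percentage points and the log2 ratio differed by -0.76 (SE 0.17, adjusted p 0.00654 in limma), which held in 16 of 17 alternatives and was lost without the variance trend (adjusted p 0.312). Of the 10 AFC2 transcripts in RefSeq, 3 carry the exon as coding sequence and 2 join its neighbours. The length of the exon is not a multiple of 3, and the longest transcript without it starts at a later ATG and has 975 coding bases in place of 1284.

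PSI of the AFC2 intron was 10.07, 9.21 and 9.19% in WT mock and 13.39, 16.74 and 12.41% in sr34a-1 mock. With ABA it was 10.29, 12.85 and 7.35% in WT against 16.28, 10.97 and 18.49% in sr34a-1. The groups overlapped with ABA. The log2 ratio differed by 0.65 (SE 0.18, adjusted p 0.047 in limma), and the call held in 3 of 17 alternatives, among them those without WT ABA 2 and without sr34a-1 ABA 2, and in none without any other single library (0.0544 to 0.155). The intron ends where the exon begins, so both events share junction reads and are not independent. A second exon of AFC2, of 75 bases, had the PSI nearest 50 in this gene, with 63.5 ± 0.784% in WT mock, 58.5 ± 3.72% in sr34a-1 mock, 58.1 ± 3.53% in WT ABA and 57.8 ± 4.19% in sr34a-1 ABA (SD, n = 3 each), and its averaged genotype difference had an adjusted p of 0.764 in limma.

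In MOS14 a rarely used exon was found mainly in the mutant. The 51-base exon had a PSI of 0.52, 0.37 and 0.91% in WT mock and 2.99, 4.53 and 3.62% in sr34a-1 mock. With ABA it was 0.84, 0.76 and 0.29% in WT against 1.79, 3.26 and 5.52% in sr34a-1. Each mutant library was above each WT library, on 176 to 277 reads. These are totals, and at a PSI of at most 0.91% in WT few of them include the exon. The size of the log2 ratio therefore depends in part on the 0.5 reads added, and it ranged from 1.91 to 2.39 over the alternatives. The log2 ratio differed by 2.20 (SE 0.51, adjusted p 0.0112 in limma) and the call held in all 17 alternatives. The event passed the lower limit of mean PSI, 2%, through the mutant libraries only, so that it had to differ to be tested. All alternatives but the fit without PSI limits kept that limit, so the adjusted p and their number are not independent support. The call is not read against the share of all events called. The intron around it, with WT means of 1.66 and 0.975%, entered in the same way. The exon lies in the intron between coding exons 13 and 14 of 27, and the RefSeq transcript does not contain it. Its 51 bases are 17 codons, but read in the frame of the upstream exon a stop codon (TGA) begins at base 18.

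The 431-base intron that surrounds the MOS14 exon was read through more often. Because the exon lies inside this intron, both events share junction reads and are not independent. PSI of the intron was 0.62, 2.97 and 1.40% in WT mock and 6.0, 4.66 and 6.51% in sr34a-1 mock. With ABA it was 1.29, 0.70 and 0.93% in WT against 8.17, 12.26 and 4.04% in sr34a-1. Each mutant library was above each WT library, on 55 to 109 reads, with a log2 ratio difference of 2.02 (SE 0.55, adjusted p 0.0387 in limma) that held in 7 of 17 alternatives. Few of these reads keep the intron in WT, so the size of this ratio also depends in part on the 0.5 reads added (1.69 to 2.24 over the alternatives). Of the fits without a single library, it held in those without WT mock 2 and without sr34a-1 ABA 3 only (0.0533 to 0.111 in the other 10). The 282-base intron just upstream had 3.54 ± 4.14% in WT mock, 8.84 ± 2.18% in sr34a-1 mock, 1.24 ± 0.408% in WT ABA and 6.48 ± 3.70% in sr34a-1 ABA (SD, n = 3 each) and was not called (adjusted p 0.174 in limma). The exon stayed at or below 5.52% of the reads in every library.

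**Figure D4:**
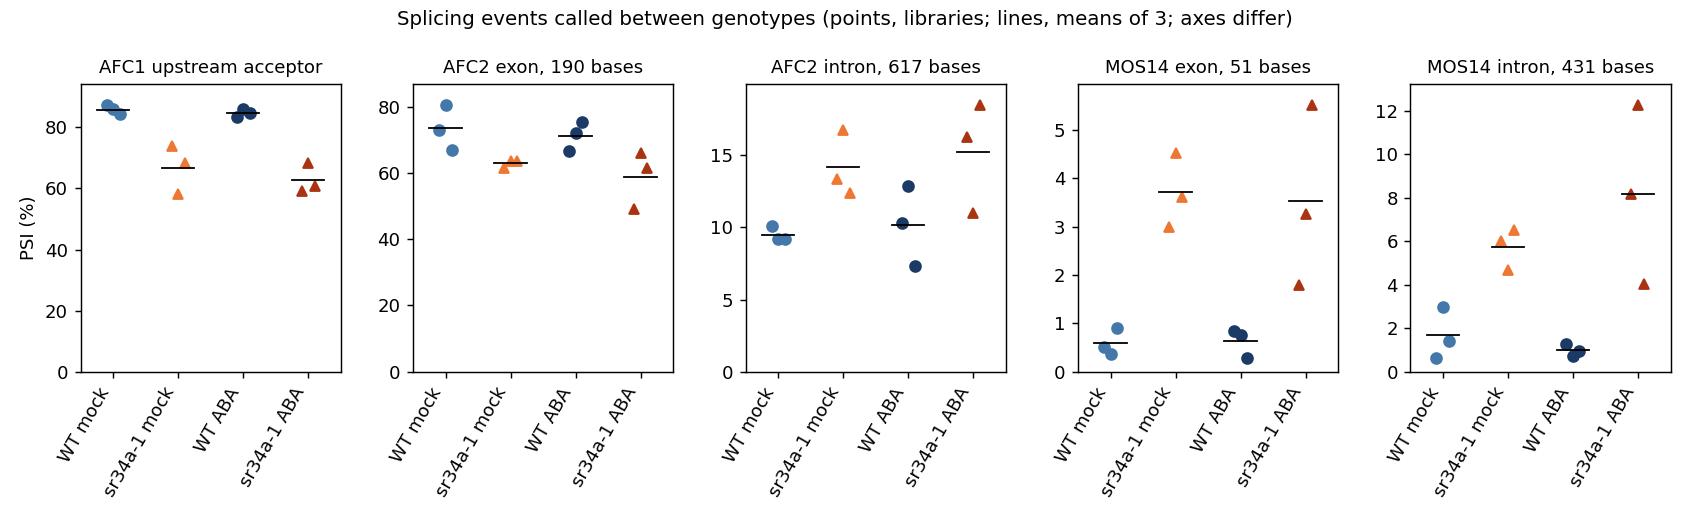
PSI in percent of the 5 called events in each library, with circles for WT, triangles for sr34a-1 and lines for the means of 3 libraries, on axes that differ between panels and start at 0. The genotypes do not overlap for the AFC1 acceptor (83.5 to 87.4% against 58.2 to 73.9%), the MOS14 exon and the MOS14 intron, and overlap for the AFC2 intron.

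With ABA no call was made among the 40 tested events. Of these, 0 were called in WT, in sr34a-1, averaged over genotypes or in the interaction with limma, beside 0.0179% (0.0107% higher and 0.00714% lower), 0.0286% (0.0143% in each direction), 0.075% (0.0393% higher and 0.0357% lower) and 0% of all events. At an unadjusted p under 0.05 there were 4, 1, 3 and 1 events. Without the limits on mean PSI, which admits further events, 4 were called for ABA averaged over genotypes. The AFC1 acceptor moved by -1.07 percentage points in WT and -4.10 in sr34a-1 with ABA, against -19.0 and -22.1 between genotypes, and the interaction for this event had a log2 ratio of -0.14 (SE 0.50).

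Several introns had a high PSI in every group. In PRP4KA a 223-base intron (chr3:9452559-9452781) had a PSI from 37.6 to 50.2% over the 12 libraries, and the 309-base intron after it (chr3:9452184-9452492) had a mean of 38.2%. Both lie beyond the stop codon, and 1 of the 2 annotated transcripts ends within the first of them. The part of that shorter transcript in the PSI was not tested. In AFC3 a 92-base intron (chr4:15757020-15757111) had 24.7 to 47.9%, and 1 of 4 annotated transcripts keeps it. No call was made for these introns in any comparison, with an averaged genotype adjusted p of 0.923 for the PRP4KA intron of 223 bases and 0.55 for that of AFC3 (limma). The median intron of the 10 genes, over 88 introns with enough reads, had a mean PSI of 0.597%, against 0.409% over all 88697 such introns.

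The SRPK-type genes showed little alternative splicing by this measure. The event with PSI nearest 50 was a 79-base intron in AT2G17530 (mean 10.6%, range 5.45 to 15.4%), a 95-base intron in SRPK4 (2.01%), a 420-base intron in AT3G44850 (1.83%), a 75-base intron in AT4G35500 (1.60%) and a 208-base intron in AT5G22840 (1.37%). A 36-base intron of AT4G35500 that 1 of its 2 annotated transcripts splices out had a PSI of 100% in all 12 libraries. No annotated transcript holds this intron within an exon, and the event was chosen after its value was seen.

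The substrates and partners of these genes, taken from fixed lists, were looked at in the same fit. Of 20 SR protein genes, 9 were higher and 3 lower in sr34a-1 averaged over treatments, with a median log2 fold change of 0.092, so that 12 of 20 were called beside 33.9% of all tested genes. The lower ones include SR34A itself (-2.87, SE 0.048), and SR30 (0.53, SE 0.030) and RSZ22A (0.39, SE 0.039) were the next in size. With ABA 6 of 20 were higher and 0 lower, led by RS40 (0.26), RSZ21 (0.18) and RS2Z32 (0.16), with a median of 0.039. Beside them stand 51.2% of all tested genes called, 24.7% higher and 26.4% lower, and nothing is read from this count. All named genes had an adjusted p under 0.05 with edgeR over all genes.

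The same shares of all tested genes, 33.9% between genotypes and 51.2% between treatments, stand beside the counts of the next 2 lists, and nothing is read from counts near or below them. Among 6 other kinases and cyclins linked to splicing, 2 were higher in sr34a-1 (CYCL1 with a log2 fold change of 0.12 and CDKC2 with 0.070), with a list median of 0.046. With ABA 3 were higher (CDKG1 0.33, CDKG2 0.16 and CYCL1 0.16) and 1 was lower, with a median of 0.096. Of 12 nuclear transport genes, 4 were higher and 2 lower in sr34a-1, the largest being RAN1, a small GTPase (-0.22), the importin gene KETCH1 (0.17) and the importin alpha gene IMPA2 (0.13), with a median of 0.050. With ABA 1 was higher and 3 lower: KETCH1 (-0.40), the importin beta gene SAD2 (-0.39) and the exportin gene XPO1A (-0.13), with a median of -0.059. KETCH1 and XPO1A (0.090 between genotypes) were both higher in the mutant and lower with ABA, the signs of MOS14. The kinase gene AT5G22840 had the same signs, while RAN1 was lower in the mutant, and nothing is read from this match.

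The tested gene with the most similar profile over the 12 libraries was sought for each of the 7 genes that ABA changed, as the smallest root mean square difference of centred log2 CPM among 17166 genes. AFC2 lay nearest ACLA-1 (0.036), a subunit gene of ATP-citrate lyase, SRPK4 nearest XBAT35 (0.046), AT4G35500 nearest QPT (0.044), quinolinate phosphoribosyltransferase, and AT2G17530 nearest LPAT1 (0.032), an acyltransferase gene. AT3G44850 lay nearest AT2G47790 (0.051) and AT5G22840 nearest AT5G15550 (0.045), both annotated as WD40 repeat proteins, and MOS14 lay nearest AT4G31080 (0.036). The median candidate differed by 0.155 to 0.273, depending on the gene, but the nearest is the smallest of all candidates and had to lie below it. The SD of a gene's own centred values ran from 0.066 for AT2G17530 to 0.247 for AT5G22840.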

How the data were processed

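Messenger RNA was sequenced from 12 libraries in 4 groups, taken from the sample titles. The gene table deposited by the authors holds, per the file headers, whole-number read counts and cRPKM, an RPKM value scaled to length and depth by the authors. The deposited splicing table gives PSI in percent and, per the file headers, a quality field from which read numbers were taken; PSI recomputed from them was within 0.05 of the deposited one. The assembly was TAIR10, per the submitters' processing notes. The aligner and counting tool are not given in the sources used here. Of 88688 introns, 99.91% began with GT or GC and ended with AG when read from TAIR10.1, and 0 reached beyond a chromosome.

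Counts were tested with edgeR 4.0.16 in R 4.3.3 (quasi-likelihood test, TMM factors 0.976 to 1.025, filterByExpr, 21256 of 32389 genes, 1 model of 12 libraries with a mean per group), and fold changes are sr34a-1 over WT and ABA over mock. For splicing, limma 3.58.1 was fitted to log2((inclusion + 0.5)/(exclusion + 0.5)), in reads, with 1 variance trend over events with at least 10 reads in each library and mean PSI of 2 to 98. P-values were adjusted by Benjamini-Hochberg over all genes or events. Methods were tested on simulated data, with changes larger than those of the 10 genes and of the AFC2 events. The simulated libraries shared no deviations by replicate number, so that test does not cover changes of the size reported here. Intervals and read numbers cover no bias of amplification, and the labels mention no molecular identifiers. The alternatives were RLE factors, DESeq2 1.42.0, no low-count filter, limma on log2(cRPKM + 1) or (cRPKM + 0.1), only the groups compared, a replicate block, each library left out, 20 reads, no PSI limits, 1 read added, no variance trend and a rule on PSI ranges.

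The 10 genes and all lists were chosen with earlier results of these data known. Named are all 10 genes, at most 3 called genes per list and comparison by size, the nearest profile of each gene called with ABA, every called event, and the event of each gene with PSI nearest 50. Differences between replicates exceeded counting noise (chi-square per degree of freedom 4.27 to 19.7), so none was a copy. Same-numbered libraries of both genotypes deviated together in all 3 pairs under mock (r 0.117 to 0.315) and with ABA (r 0.100 to 0.148), so blocked values stand beside genotype results within a treatment where they change a call. No 50-base stretch of a gene's longest transcript was shared with another of the 10.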

Additional observations from a re-analysis of the deposited data

How the results depend on the processing

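The interaction count of 0 of 10 genes held in every alternative. With ABA the genotype count of 4 genes was 2 without the low-count filter, with limma on log2(cRPKM + 1) or + 0.1, and with only the groups compared. In sr34a-1 the ABA count of 2 was 4 with RLE factors, DESeq2 or only the groups compared, and 5 with the replicate block. That block called 9914 genes in all, in place of 8514. Averaged over genotypes, the ABA count of 7 was 4 with limma on either cRPKM scale. Without PSI limits the event counts were 0 under mock (1 in the report), 3 with ABA (1), 8 averaged over treatments (5) and 4 for ABA averaged over genotypes (0), and without the variance trend the genotype counts were 0, 0 and 3. The cause of these moves was not tested.

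Leaving out single libraries gave 1 to 3 genes for genotype under mock, 2 to 5 with ABA, 2 to 4 for ABA in WT, 0 to 5 for ABA in sr34a-1 (0 without sr34a-1 mock 1), 4 to 6 for genotype averaged and 5 to 9 for ABA averaged, and 0 to 1, 0 to 2 and 3 to 5 events for genotype under mock, with ABA and averaged. AFC3 lost its averaged genotype call without WT mock 1 or 2, sr34a-1 mock 1 or 2, WT ABA 2 or 3, or sr34a-1 ABA 2 or 3 (adjusted p 0.0501 to 0.118). AT4G35500 lost its averaged ABA call without WT mock 2 or 3, sr34a-1 mock 1, 2 or 3, WT ABA 3, or sr34a-1 ABA 1 or 3 (0.0524 to 0.0847), and AT2G17530 without WT mock 1 or 2, sr34a-1 mock 1, WT ABA 2 or 3, or sr34a-1 ABA 3 (0.0555 to 0.119). The AFC2 intron lost its call with the replicate block (adjusted p 0.05).

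Signs turned for 6 values near 0, none of them called: AT2G17530 with ABA in sr34a-1 without sr34a-1 mock replicate 1 (0.0072) or sr34a-1 ABA replicate 3 (0.0045; range -0.019 to 0.0072 over libraries left out), SRPK4 between genotypes without WT ABA replicate 1 (-0.023; range -0.023 to 0.058), AFC3 with ABA on both cRPKM scales (-0.00060 and -0.00068), and the PRP4KA intron of 223 bases without WT ABA replicate 1 (0.020; range -0.16 to 0.020). Of 682 recomputed gene values 579 kept sign and side of the threshold, and of 223 for events 188 did. Same-numbered libraries did not all deviate together between treatments of 1 genotype (r from -0.026 to 0.190), and over all 18 pairs of groups and numbers 13 correlated best with their own number. There the replicate block gave 4 genes in WT, 5 in sr34a-1 and 8 averaged. Of all 21256 tested genes it called 8776, 9914 and 12014, in place of 7461, 8514 and 10874, so nothing is read from these counts. The rarest events rest on few reads, with 47 to 112 in all per library for the upstream MOS14 intron. The called MOS14 exon and intron rest on few inclusion reads in WT.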
